A study of Mus musculus with 6 samples.

Results

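Atf4 and 9 of its target genes were followed in postnatal mouse kidney after deletion of the transferrin receptor TfR1 (gene symbol Tfrc). The 10 genes, of 24422 listed, were Atf4, its fellow transcription factors Atf5, Ddit3 and Atf3, the feedback regulator Trib3, the glutathione-degrading enzyme Chac1, the amino acid enzymes Asns and Psat1, the mitochondrial folate enzyme Mthfd2 and the cystine carrier Slc7a11. They are named targets of the integrated stress response and were chosen by their higher normalized counts in knockout than in Control, in these same libraries, with no set threshold. Their levels and fold changes are therefore a description, and no test of them is given.

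RNA from 6 whole kidneys was sequenced as poly-A libraries, 3 from Control mice and 3 from TfR1 knockout mice. All animals were C57BL/6, 13 days old, and on an iron sufficient diet of 220 ppm iron. The labels give the Control genotype as wild type and the knockout genotype as Tfr1f/f;SixCre, with TfR1KO;Six2Cre in the sample titles. Six2Cre acts in the nephron progenitors, which form the tubule from the glomerulus to the distal nephron but not the collecting duct, stroma, vessels or blood cells, and the study describes tubule cells that escaped deletion. The series describes the replicates as biological, and neither the sex of the mice nor pooling is given in the labels. In whole kidney, fewer cells of a type and less RNA per cell cannot be told apart.

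The integrated stress response joins several kinases that sense amino acid shortage, unfolded protein, viral RNA or lack of heme, and that all phosphorylate the translation factor eIF2alpha. This lowers protein synthesis in general but favours translation of the Atf4 mRNA, so that Atf4 protein can rise with little change in its transcript. Atf4 then pairs with C/EBP and other bZIP proteins on short promoter elements and raises genes for amino acid synthesis, uptake and tRNA charging, along with genes such as Ddit3 (CHOP) and Trib3 that limit the response or lead to cell death.

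The core of those promoter elements was read in the members' promoters, because it is the sequence through which Atf4 is known to act. The windows ran from 250 bases before to 50 bases after each RefSeq start site. TGATGNAA, the core of the C/EBP-ATF composite element, was searched on both strands, along with TGGTGCAA, a variant that was chosen after the sequences were read. TGATGNAA was present in 5 of the 10 genes (Trib3, Asns, Chac1, Atf3 and Slc7a11) and in 4.51% of the 27018 genes with a window. TGGTGCAA was present in 2 of the 10 (Trib3 and Psat1) and in 0.644% of all genes. The 10 genes were named as targets of Atf4, and the variant was chosen on these sequences, so neither share is independent evidence. Neither was found in the windows of Ddit3, Atf4, Atf5 and Mthfd2. In Trib3 the TGATGNAA match lay after the start site and is not shown. The sites before the start are printed with 11 bases on each side, the motif in capitals, on the strand on which it reads as searched, in mm9 coordinates. A match describes letters only, since binding was not measured here.
Trib3, chr2:152169811-152169840, minus strand: cgggtcacagaTGGTGCAAtcccgggccgc
Asns, chr6:7643214-7643243, minus strand: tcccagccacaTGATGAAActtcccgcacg
Chac1, chr2:119176774-119176803, minus strand: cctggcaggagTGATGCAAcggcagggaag
Atf3, chr1:193007304-193007333, plus strand: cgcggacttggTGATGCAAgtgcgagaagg
Psat1, chr19:15999667-15999696, minus strand: acgcgggtggcTGGTGCAAtcccctgctct
Slc7a11, upstream site, chr3:50247583-50247612, minus strand: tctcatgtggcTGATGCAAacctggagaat
Slc7a11, second site, chr3:50247564-50247593, plus strand: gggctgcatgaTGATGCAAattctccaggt

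The sites ended between 15 bases (Asns) and 185 bases (Chac1) before the RefSeq start. In the GENCODE annotation the Trib3, Chac1, Atf3 and Slc7a11 sites were outside any gene. The Asns site fell in an Asns exon, because that annotation starts the gene farther upstream. The Psat1 site fell inside the annotated Psat1 gene but outside its exons. The Slc7a11 sites face each other on opposite strands, and their printed windows overlap.

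All 10 genes were higher in every TfR1 knockout library than in any Control library. Knockout values lay above all Control values for 16.9% of the 16509 genes tested, so such separation was itself common in these data. The fold changes ran from 1.52-fold for Atf4 to 20.7-fold for Trib3, with a median log2 fold change of 2.18, beside 0.01 over all genes tested. An adjusted p under 0.05 with a higher knockout value was reached by 7.74% of all genes, a lower value by 7.18%, and an at least 2-fold higher value by 4.41%. By DESeq2 all 10 genes fell in the first class and all but Atf4 in the last, but this contrast chose them and nothing is read from those counts. Not every fit gave the same calls. Psat1 did not pass by edgeR (adjusted p = 0.0639) or limma-voom, nor Slc7a11 by limma-voom. By DESeq2 Atf4 did not pass without Control replicate 1, or without both libraries holding adrenal transcripts.

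**Figure D1:**
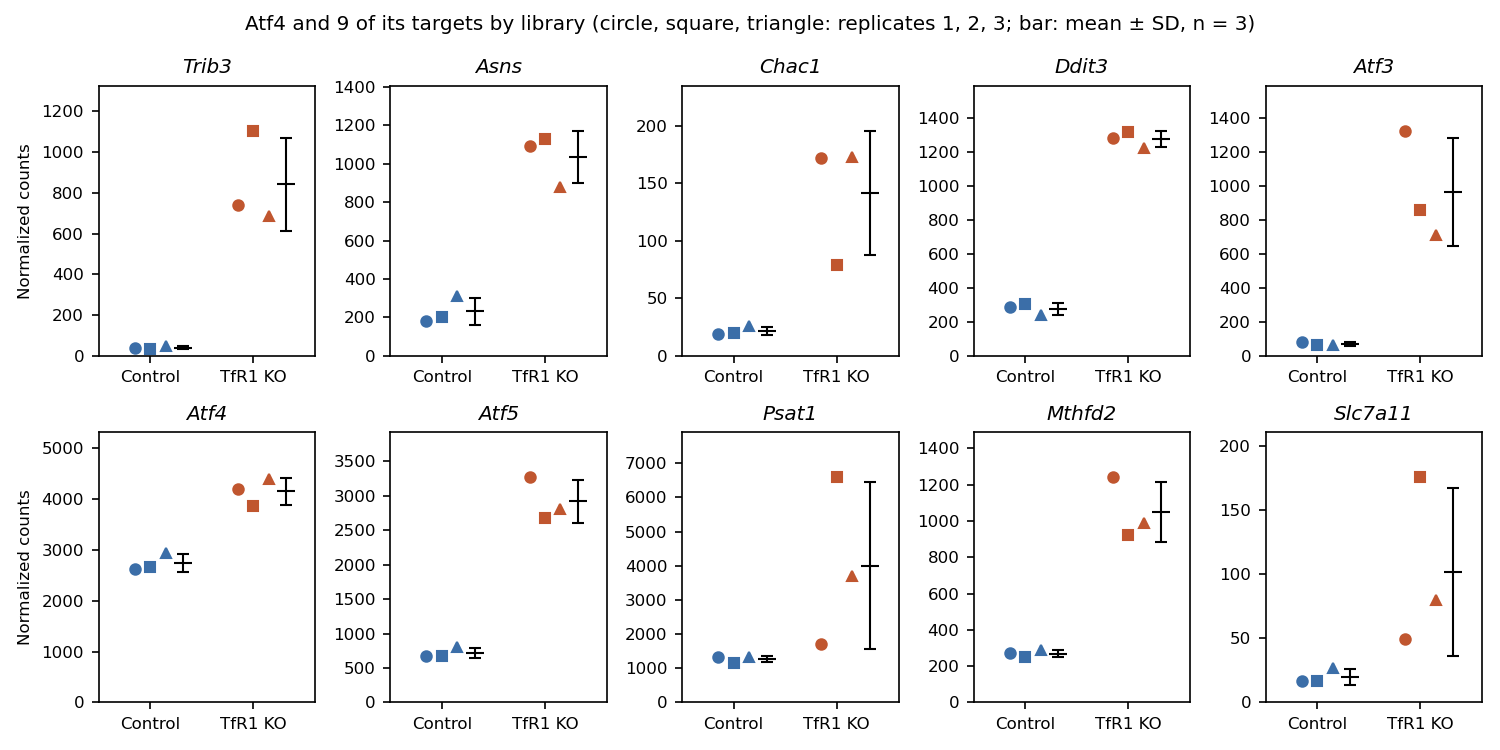
Normalized counts (linear axes from 0) of Atf4 and 9 targets in 3 Control and 3 TfR1 knockout kidneys. Each symbol is 1 library (circle, square and triangle for replicates 1, 2 and 3), and the bar to the right is the mean ± SD. No gene overlaps between groups, and Psat1 and Slc7a11 have the widest spread among knockouts.

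Atf4 itself, the transcription factor that gives the response its name, was the most abundant of the 10 and changed least. Its normalized counts (counts divided by a library size factor) were 2622, 2660 and 2936 in the Control libraries and 4204, 3868 and 4398 in the TfR1 knockout libraries. The lowest knockout value was 1.32 times the highest Control value. The means were 2739 ± 172 and 4157 ± 268 (SD, n = 3 each), a log2 fold change of 0.60 ± 0.14 (SE). Atf4 ranked 2392 of the 16509 genes tested, counted from the largest log2 fold change down. Per kilobase of exon, the only scale on which levels of different genes may be compared, Atf4 stood at 1589 normalized counts in Control, and Atf5 came next with 361. The Atf4 gene lies at chr15:80085614-80087970 on the plus strand.

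Trib3, a pseudokinase that Atf4 induces and that holds Atf4 back in turn, had the largest fold change of the 10. It was low in Control, with 41.2, 31.8 and 49.5 normalized counts, and reached 740, 1103 and 684 in the TfR1 knockout. The means were 40.9 ± 8.86 and 842 ± 227 (SD, n = 3 each), and the log2 fold change was 4.37 ± 0.30 (SE). Its lowest knockout value was 13.8 times its highest Control value, and it ranked 51 of 16509 by log2 fold change from the most raised gene down. Per kilobase, Trib3 moved from 19.2 to 396 normalized counts, to about the level of Asns (378) and Mthfd2 (386) in the knockout. Trib3 lies at chr2:152163158-152169768 on the minus strand.

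The other bZIP factors of the response, Ddit3, Atf5 and Atf3, had larger log2 fold changes than Atf4. Ddit3, known as CHOP and linked to cell death under lasting stress, measured 290, 304 and 238 normalized counts in Control and 1284, 1318 and 1225 in the knockout. The 3 knockout values lay within a coefficient of variation of 3.68%, the narrowest among the 10, around a mean of 1276 ± 46.9 against 277 ± 34.7 in Control (SD, n = 3 each). The log2 fold change was 2.20 ± 0.17 (SE). Ddit3 (chr10:126727830-126733344, plus strand) shares 81 exon bases with genes on the opposite strand, among them the methionyl-tRNA synthetase gene Mars. The strand setting of the counting is not given in the sources used here, so reads in the shared bases cannot be told apart. Mars itself differed by a log2 value of 0.41 and did not pass the test (DESeq2 adjusted p = 0.0713).

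Atf5, a relative of Atf4 whose own translation is raised in the same way and which drives the mitochondrial stress response, measured 680, 674 and 805 normalized counts in Control. The TfR1 knockout libraries held 3267, 2678 and 2811, all more than 3-fold above the highest Control. The log2 fold change was 2.02 ± 0.17 (SE), from 720 ± 73.9 to 2919 ± 309 (SD, n = 3 each). Atf5 (chr7:52067627-52072028, minus strand) shares 82 exon bases with Il4i1 and Nup62 on the opposite strand. Nup62 had a log2 fold change of -0.03 (DESeq2 adjusted p = 0.912), and Il4i1 had at most 9 counts in a library.

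Atf3, an early-response bZIP factor that Atf4 and several other stress pathways induce, showed the second largest fold change. Its normalized counts were 80.8, 61.8 and 62.4 in Control and 1322, 856 and 710 in the knockout. The groups were far apart, and TfR1 knockout replicate 1 was the highest. The means were 68.4 ± 10.8 and 963 ± 319 (SD, n = 3 each), with a log2 fold change of 3.81 ± 0.30 (SE), and of 3.51 without that library. TfR1 knockout replicate 1 also held most of the immediate early transcripts, genes switched on within minutes by growth factors, injury or handling. The 8 listed immediate early genes summed to 54860 normalized counts there, against 15300 and 8879 in the other knockout libraries and 3447 to 5347 in Control. Whether this has a part in the Atf3 level was not tested. Atf3 lies at chr1:192994175-193007219 on the minus strand.

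**Figure D2:**
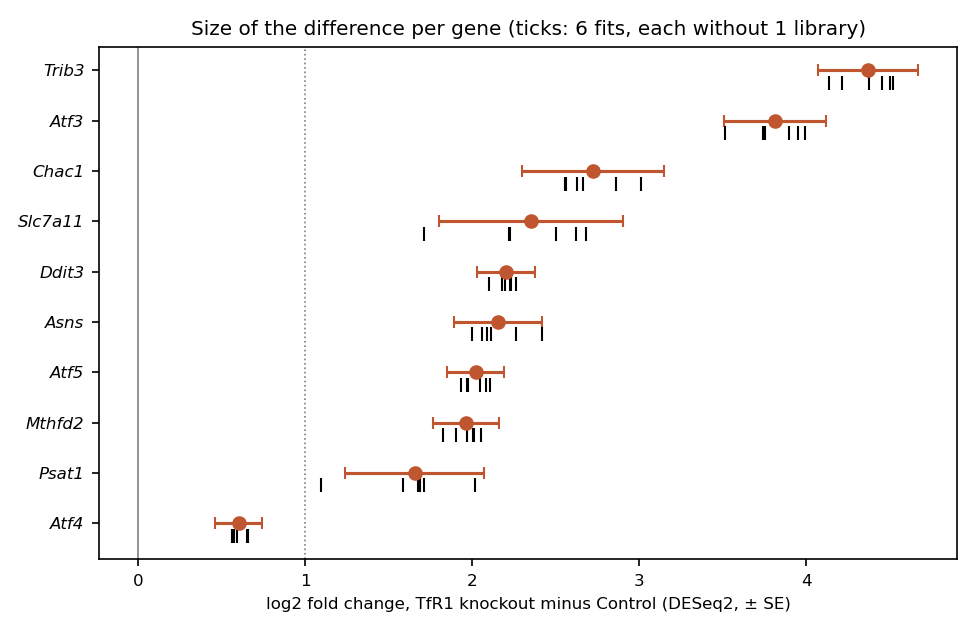
Log2 fold change, TfR1 knockout minus Control, for each gene (circle, DESeq2 estimate, bars ± SE), with ticks for the 6 fits that each left out 1 library. The solid line marks no difference and the dotted line 2-fold. Trib3 and Atf3 lie farthest to the right, Atf4 at 0.60 is the only gene left of the dotted line, and the ticks of Psat1 and Slc7a11 spread most.

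Chac1, which cleaves glutathione and is a late target downstream of Ddit3 and Atf3, was scarce. It had 19.0 normalized counts in Control replicate 1, the lowest, and 25.8 in Control replicate 3, the highest, with replicate 2 between them, and 172, 79.3 and 173 in the TfR1 knockout. Replicate 2 was the lowest knockout library and still lay 3.07-fold above the highest Control. The log2 fold change was 2.72 ± 0.43 (SE), from 21.6 ± 3.70 to 141.5 ± 53.8 (SD, n = 3 each). Chac1 lies at chr2:119176965-119180117 on the plus strand.

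Among the metabolic genes, Asns and Mthfd2 moved evenly. Asns, which makes asparagine from aspartate and glutamine and is a classical Atf4 target, measured 183, 204 and 312 normalized counts in Control and 1095, 1131 and 880 in the knockout. Its Control libraries were the more uneven, with replicate 3 above the others. The log2 fold change was 2.16 ± 0.26 (SE), from 233 ± 69.4 to 1035 ± 136 (SD, n = 3 each). Mthfd2, the mitochondrial folate enzyme that passes on carbon units derived from serine, measured 273, 249 and 286 normalized counts in Control and 1240, 923 and 989 in the knockout. All 3 knockout libraries were at least 3.22-fold above the highest Control. Its log2 fold change was 1.96 ± 0.20 (SE), from 269 ± 18.9 to 1050 ± 168 (SD, n = 3 each). Asns lies at chr6:7625169-7643254 and Mthfd2 at chr6:83255685-83267600, both on the minus strand.

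Psat1 and Slc7a11 were the uneven pair. Psat1, the aminotransferase in the middle of serine synthesis, measured 1318, 1160 and 1332 normalized counts in Control and 1720, 6585 and 3689 in the TfR1 knockout. The knockout libraries differed among themselves by more than the lowest of them differed from Control, since replicate 1 was only 1.29-fold above the highest Control value and replicate 2 was 5.19-fold above the Control mean. The means were 1270 ± 95.4 and 3998 ± 2447 (SD, n = 3 each), with a log2 fold change of 1.66 ± 0.42 (SE), which was 1.10 when TfR1 knockout replicate 2 was left out and 2.02 when replicate 1 was. Psat1 lies at chr19:15979168-16021827 on the minus strand and contains a pseudogene, Gm3329, on the opposite strand that shares none of its exon bases.

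Slc7a11, the cystine and glutamate exchanger that supplies glutathione synthesis, was the scarcest of the 10 per kilobase of exon (1.77 normalized counts in Control). It measured 16.5, 16.4 and 26.9 normalized counts in Control and 49.7, 175 and 79.5 in the knockout. The order of the knockout libraries was the same as for Psat1, with replicate 2 highest and replicate 1 lowest. The log2 fold change was 2.35 ± 0.55 (SE), the least precise of the 10, from 19.9 ± 6.05 to 101.5 ± 65.6 (SD, n = 3 each), and it was 1.71 when TfR1 knockout replicate 2 was left out and 2.68 when replicate 1 was. Slc7a11 lies at chr3:50168858-50247535 on the minus strand.

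The 3 knockout kidneys therefore did not rank alike across the genes. Relative to the mean of replicates 1 and 3, replicate 2 was higher by a log2 value of 1.44 for Slc7a11, 1.28 for Psat1 and 0.63 for Trib3. It was lower by a log2 value of -1.12 for Chac1, and within 0.27 in either direction for the other 6 genes. After the group means were removed, Psat1 and Slc7a11 deviated together over the 6 libraries (Pearson r = 0.914), whereas Psat1 and Mthfd2 deviated in opposite directions (r = -0.837) and Psat1 and Chac1 as well (r = -0.752). These values describe 6 libraries that share 2 group means, and no p is given.

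**Figure D3:**
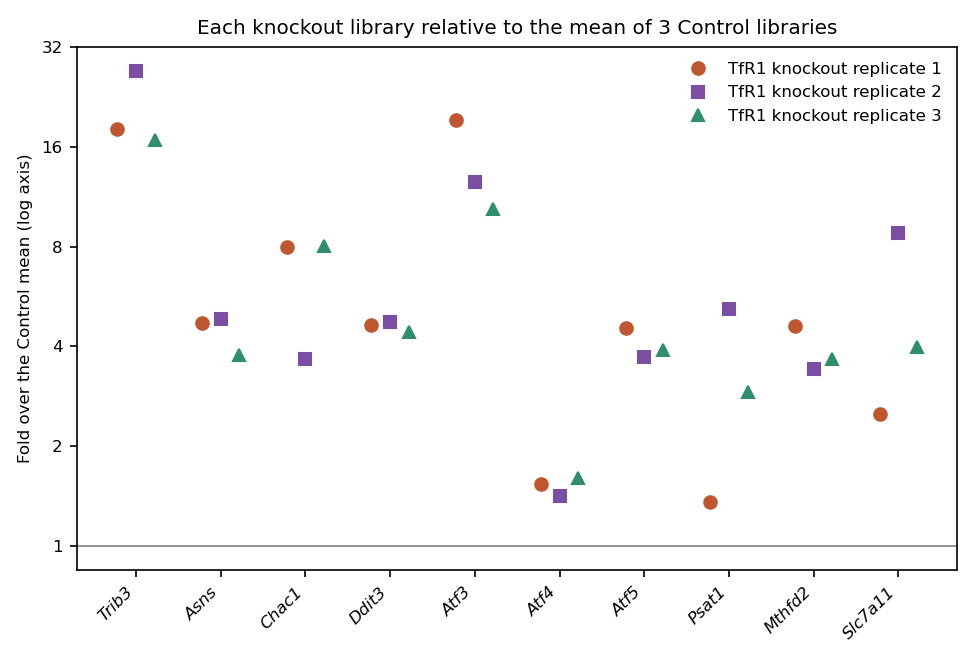
Level of each gene in each TfR1 knockout library, as the fold over the mean of the 3 Control libraries (log axis, line at 1). Circles, squares and triangles are replicates 1, 2 and 3. Replicate 2 is the highest for Slc7a11 (8.80-fold), Psat1 (5.19-fold) and Trib3 (27.0-fold) and the lowest for Chac1 (3.67-fold).

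Several measured facts moved with the libraries. TfR1 knockout replicate 2 was the only knockout library rich in the female-specific transcript Xist (27150 normalized counts, with 2.56 of the Y-linked Ddx3y), whereas replicates 1 and 3 held 1819 and 2347 normalized counts of Ddx3y. Replicate 3 also held 1031 normalized counts of Xist, more than the 145 in replicate 1 and the 78.2 in Control replicate 2, the other libraries rich in Ddx3y. Control replicates 1 and 3 were also rich in Xist. For Psat1 they measured 1318 and 1332 normalized counts, against 1160 in Control replicate 2. For Trib3 they measured 41.2 and 49.5 against 31.8, and for Slc7a11 16.5 and 26.9 against 16.4. For these genes both lay above Control replicate 2, and TfR1 knockout replicate 2 was the highest knockout library. For Chac1 they lay on either side of Control replicate 2. Whether sex has a part in these levels was not tested. With the Xist-rich libraries as a term in the fit, a choice made after seeing the data, the log2 fold change was 1.77 for Psat1, 2.54 for Slc7a11, 4.56 for Trib3 and 2.46 for Chac1. Adrenal cortex genes summed to 19360 normalized counts in Control replicate 1 and 2629 in TfR1 knockout replicate 3, with a low of 149 elsewhere. With both libraries left out, also chosen after seeing the data, the log2 fold changes that moved farthest were those of Atf3 (4.13) and Chac1 (2.46).

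Several sums of cell type markers differed between the groups, and whether cell number or RNA per cell changed cannot be told apart. The sums for stroma and proximal tubule overlapped between the groups. Thick ascending limb markers summed to 13210 to 25500 normalized counts in the knockout against 47990 to 111800 in Control, with 5 of 5 lower. Distal convoluted tubule markers were 736 to 1783 against 11270 to 22530, with 3 of 3 lower. Collecting duct markers were 37080 to 64830 against 9780 to 19480 (4 of 6 higher), and macrophage markers 4230 to 6524 against 2227 to 3657 (4 of 8 higher). Stroma markers were 23540 to 44910 against 44580 to 93220 (2 of 5 lower). Proximal tubule markers were 51070 to 74500 in the knockout against 61210 to 121800 in Control. Of these 9 markers 3 were lower, Slc5a2 (log2 -5.12), Lrp2 (log2 -1.48) and Aqp1 (log2 -0.92), and 1 was higher, Slc22a6 (log2 1.79), all by DESeq2 at an adjusted p under 0.05. No marker in these 6 lists was at 0 in all libraries. Over all genes 7.74% were higher and 7.18% lower. Among the other lists, endothelium (5 tested), adipose (3) and erythroid (3) had 0 that passed. Podocyte and urothelium had 1 of 5 higher each, intercalated cell 1 higher and 1 lower of 4, and lymphocyte 1 of 4 lower. Adrenal markers had 0 tested. The part of these shifts in the levels of the 10 genes was not tested. Tfrc itself did not pass the test (5229 ± 1434 normalized counts in Control, 5640 ± 1482 in the knockout, SD, n = 3 each), with a log2 value of 0.11 and a DESeq2 adjusted p of 0.853. The counts cover the whole gene, of which the Cre removes only part, and cells outside the Six2 lineage keep it, so this value checks neither the deletion nor the labels.

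The rest of the pathway was read from 5 lists of 56 genes, 55 of them tested, that were named as upstream regulators or targets of Atf4. Of these 32 rose (58.2%, beside 7.74% of all genes) and 0 fell by DESeq2 at an adjusted p under 0.05, with 0 lower at an unadjusted p under 0.05 as well. Their median log2 fold change was 0.61, with 50 of 55 above 0. The lists were chosen with earlier results of these data known, so these shares are a description and no independent support. edgeR called 17 of the 55 higher and 0 lower, beside 3.22% of all genes higher. Without Control replicate 1 the DESeq2 count was 19, without Control replicate 2 it was 20, and without both libraries holding adrenal transcripts it was 9, while the counts over all genes higher were 664, 705 and 421. TGATGNAA stood in the promoter window of 12 of the 43 pathway genes that had one (27.9%). Several of these genes are known for that element, so the share is no independent evidence.

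Of the 8 amino acid carriers tested, 7 rose, with a median log2 fold change of 1.06. Slc7a3, a carrier of cationic amino acids, rose from 24.5 ± 8.73 to 86.7 ± 20.4 normalized counts (SD, n = 3 each, log2 1.83, DESeq2 adjusted p = 0.00021). Slc1a5, the glutamine carrier, rose by a log2 value of 1.40 (adjusted p = 8.48e-08) and Slc1a4, a carrier of serine, alanine and cysteine, by 1.19 (adjusted p = 2.09e-06), both by DESeq2. Slc3a2, the heavy chain that partners Slc7a11 and is named here for that role, had a log2 fold change of 0.34 and did not pass (DESeq2 adjusted p = 0.384). edgeR called 4 of the 8. DESeq2 called 4 without Control replicate 2 or without TfR1 knockout replicate 3, and 1, which was neither Slc7a3 nor Slc1a4, without both adrenal-containing libraries.

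The list of serine, glycine and proline synthesis, which holds mitochondrial folate enzymes, split. Of 7 tested, 2 rose, both mitochondrial enzymes that work beside Mthfd2, and 5 did not pass. Among the 5 were Shmt2 (log2 0.57, DESeq2 adjusted p = 0.16), Aldh18a1 (log2 0.45, adjusted p = 0.457) and Pycr1 (log2 -0.07, adjusted p = 0.963). Aldh1l2, which oxidizes 10-formyl-tetrahydrofolate in mitochondria, rose from 83.8 ± 6.92 to 646 ± 192 normalized counts (SD, n = 3 each, log2 2.95, DESeq2 adjusted p = 3.89e-21). Mthfd1l, which releases formate, rose by a log2 value of 1.16 (DESeq2 adjusted p = 0.00796), but not by edgeR (adjusted p = 0.0802). It also did not pass by DESeq2 without Control replicate 1 (adjusted p = 0.099), Control replicate 2 (0.0893) or TfR1 knockout replicate 2 (0.0619). The enzymes before and after Psat1, named here for that place, did not pass. Phgdh had a log2 fold change of -0.36 (DESeq2 adjusted p = 0.232), with 1914, 1343 and 1696 normalized counts in the knockout against 1937, 2065 and 2340 in Control. Psph had a log2 fold change of -0.15 (DESeq2 adjusted p = 0.667). Psat1 was chosen for its higher level and these enzymes were not, so their values are not set against its own. Of the 3 cytosolic folate enzymes 0 passed by DESeq2 or edgeR. Shmt1, which interconverts serine and glycine, came nearest, with a log2 fold change of -0.64 (DESeq2 adjusted p = 0.0568) and every knockout library below every Control. By DESeq2, 1 of the 3 passed as lower with TMM, upper-quartile or total-count scaling, with the filter of 10 counts, with the replicate block and without Control replicate 3. Mthfd1 had a log2 fold change of -0.22 (DESeq2 adjusted p = 0.636) and Aldh1l1 one of 0.47 (DESeq2 adjusted p = 0.505).

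Of 13 tRNA synthetase and tRNA export genes tested, 8 rose and 5 did not pass, 0 of the 8 reached 2-fold, and the median log2 fold change was 0.47. Gars, for glycine, rose from 1952 ± 28.5 to 3158 ± 255 normalized counts (SD, n = 3 each, log2 0.69, DESeq2 adjusted p = 2.2e-05). Aars, for alanine, measured 2380, 2376 and 2376 normalized counts in Control and 4012, 3576 and 3752 in the knockout (log2 0.67, DESeq2 adjusted p = 7.47e-06). Sars, for serine, rose by a log2 value of 0.63 (DESeq2 adjusted p = 2.68e-05). edgeR called 3 of the 13. DESeq2 called 3 without Control replicate 1 or TfR1 knockout replicate 3, 4 without Control replicate 2, and 5 without Control replicate 3 or TfR1 knockout replicate 1, and without both libraries holding adrenal transcripts it called 0. TGATGNAA stood in the promoter window of 5 of the 9 synthetase genes that had one (Aars, Gars, Iars, Tars and Yars), beside 4.51% of all genes. Among the 5, Tars did not pass (log2 0.09, DESeq2 adjusted p = 0.735). As for the pathway genes together, this share is no independent evidence.

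Stress effectors and secreted factors, a list of transcription partners, growth brakes and death genes, had 13 of 17 tested higher, with a median log2 fold change of 1.12. Gdf15, a secreted stress hormone, rose by a log2 value of 3.34 (DESeq2 adjusted p = 8.43e-09). Its level was highest in TfR1 knockout replicate 1, with 2323 normalized counts against 685 and 623 in the other knockouts and at most 164 in Control. Ero1l, an oxidase of the endoplasmic reticulum, rose by 1.98 (adjusted p = 2.42e-19), and Ddit4, an inhibitor of mTORC1, by 1.95 (adjusted p = 0.000346), both on the log2 scale by DESeq2, though Ddit4 did not pass by edgeR (adjusted p = 0.0554). Fgf21, another secreted target, had at most 1 count in any library and was not tested. Of the 17, 7 were marked as also known targets of p53 or of the hypoxia-inducible factor (Sesn2, Gdf15, Bbc3, Tnfrsf10b, Ddit4, Stc2 and Ero1l), and 6 of these rose. The marking need not be complete, so the remaining genes may include other such targets. Without the 7 marked genes, 7 of 10 rose and the median log2 fold change was 0.70. edgeR called 8 of the 17, and without both libraries holding adrenal transcripts DESeq2 called 6.

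**Figure D4:**
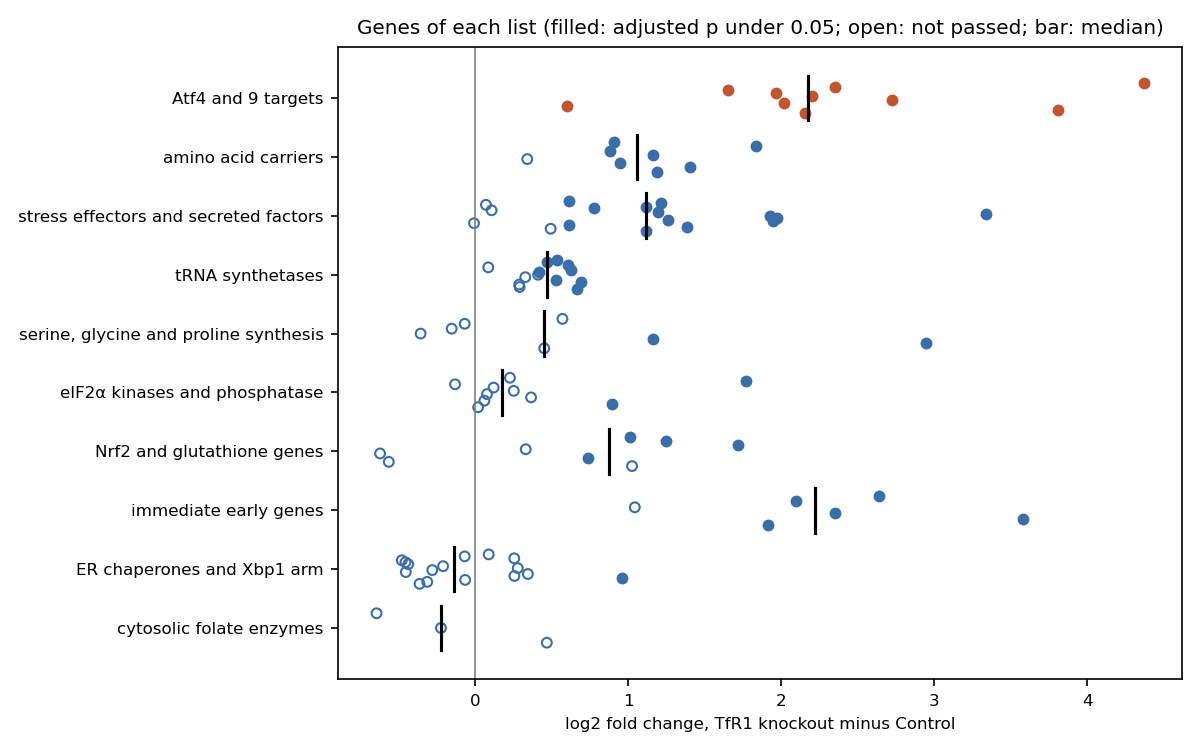
Log2 fold change, TfR1 knockout minus Control, of each tested gene of Atf4 and its 9 targets (top row), the 5 pathway lists and 4 comparison lists. Filled circles had a DESeq2 adjusted p under 0.05, open circles did not, and the black bar is the list's median. Carriers and stress effectors have medians of 1.06 and 1.12, the tRNA synthetases sit close together around 0.47, and ER chaperones lie around -0.14.

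Most of the sensors upstream of Atf4 did not pass the test at the level of mRNA, which does not report their activity. Of 10 kinases, cofactors and phosphatase subunits tested, 2 rose, with a median log2 fold change of 0.17. Ppp1r15a (GADD34), the Atf4 target that leads the phosphatase back to eIF2alpha, rose from 385, 413 and 361 to 1333, 1626 and 1004 normalized counts (log2 1.77, DESeq2 adjusted p = 2.14e-12). Eif2ak2, the kinase that senses double-stranded RNA, rose by a log2 value of 0.90 (DESeq2 adjusted p = 0.0371), with replicate 1 of the knockout at 1450 normalized counts and the others at 731 and 734. It did not pass by edgeR (adjusted p = 0.117) or, by DESeq2, without that library (adjusted p = 0.102), Control replicate 1 (0.195) or Control replicate 2 (0.183). The remaining kinases did not pass, with log2 fold changes of 0.02 for Eif2ak1, which responds to heme, 0.06 for Eif2ak3 (PERK) and 0.37 for Eif2ak4 (GCN2).

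Neighbouring stress pathways served for comparison. Chaperones of the endoplasmic reticulum and the Xbp1 arm, which rise under protein misfolding there, had 1 of 16 higher (6.25%, near the 7.74% of all genes), Dnajb9 (log2 0.96, DESeq2 adjusted p = 0.00237), 0 lower by DESeq2 or edgeR, and a median log2 fold change of -0.14. Dnajb9 did not pass by limma-voom (adjusted p = 0.0506) or, by DESeq2, without both libraries holding adrenal transcripts (adjusted p = 0.139). DESeq2 called 4 of the 16 lower without TfR1 knockout replicate 1, 2 without Control replicate 3 or with total-count scaling, and 1 with upper-quartile scaling. Hspa5 (BiP), the usual marker of that state and named here for that role, had a log2 fold change of -0.28 (DESeq2 adjusted p = 0.508). TGATGNAA stood in the window of 0 of the 14 genes of the chaperone and Xbp1 list that had one, beside 4.51% of all genes. At that share so short a list can hold none, and nothing is read from this count. Nrf2 and glutathione genes, which share Slc7a11 as a target, had 4 of 8 higher and 0 lower by DESeq2, with a median of 0.87. By edgeR 3 were higher and 0 lower. Gclc (log2 1.03), Hmox1 (log2 0.33), Gclm (log2 -0.56) and Gss (log2 -0.62) did not pass by DESeq2. DESeq2 called 1 lower with upper-quartile scaling, total-count scaling or the replicate block, and 2 without Control replicate 3. Nqo1, a quinone reductase, rose by 1.72 (adjusted p = 3.76e-05), Srxn1, which repairs oxidized peroxiredoxin, by 1.25 (adjusted p = 0.000546) and Txnrd1, the cytosolic thioredoxin reductase, by 1.01 (adjusted p = 3.39e-05), all on the log2 scale by DESeq2. Immediate early genes had 5 of 6 tested higher, with a median of 2.23 and the highest values in TfR1 knockout replicate 1 (Egr1, 14450 normalized counts there against 3527 and 2016). Egr1 (log2 3.58, DESeq2 adjusted p = 0.00271) also passed by edgeR (adjusted p = 0.0464), but Junb (log2 2.64) and Ier2 (log2 2.35) did not (edgeR adjusted p = 0.0585 and 0.0566). By DESeq2 Junb also did not pass without Control replicate 2 (adjusted p = 0.108) or Control replicate 3 (0.0701). Fos and Fosb received no p because a single library, TfR1 knockout replicate 1, carried most of their counts.

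The genes most like the 10 in profile were sought among the 12106 genes that averaged 100 or more normalized counts, by Pearson r with the mean standardized log2 profile over the 6 libraries. The closest were Oit1 (r = 0.997), Rhou (r = 0.997), Cyp2j13 (r = 0.997), Crisp1 (r = 0.996) and Adamts1 (r = 0.996). Rhou, a small GTPase, measured 398 ± 24.7 normalized counts in Control and 1685 ± 240 in the knockout (SD, n = 3 each). Cyp2j13, a cytochrome P450, measured 12.5 ± 5.47 and 1460 ± 3.86. An r above 0.9 was reached by 619 genes, since any gene that separates the groups scores high when 6 libraries form 2 groups, and no p is given.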

How the data were processed

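Poly-A RNA from 6 kidneys was read as single-end sequence. The authors deposited raw counts per gene, with no normalization. Per the labels they used CASAVA 1.8.2, Trimmomatic, TopHat2 2.0.11 on mm9 and HTSeq, and the methods state unique alignment. The annotation and strand setting are not given in the sources used here. Unique alignment lowers genes with near copies. Total counts ran from 16591156 to 22898008 per library.

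Groups came from the sample titles. The members and gene lists were chosen with earlier results of these data known. Counts were fitted with DESeq2 1.42.0 in R 4.3.3 (Wald test, median-ratio size factors, Benjamini-Hochberg adjustment over 16509 genes left by independent filtering at 0.05, 29 genes without p by the outlier filter), the study's tool and thresholds of 2-fold and adjusted p under 0.05. At those thresholds 728 genes were higher and 736 lower in this fit, more in each direction than the study reports for this knockout. The cause of that difference was not tested. Alternatives were edgeR 4.0.16 (quasi-likelihood, TMM), limma 3.58.1 (voom), other scalings and filters, a replicate block and dropping each library in turn. 2 were added after seeing the data: leaving out both libraries with adrenal transcripts, and a term for Xist-rich libraries. The code was tested on simulated data.

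Named were the 10 members, up to 3 genes per list with the largest fold change among those that passed with a mean of at least 50 (the one with the highest mean count where none passed), the 5 genes most like the members, and Tfrc. Genes named for their place in a pathway or because they did not pass, and Mars, Nup62 and Il4i1 for their overlap, were chosen after their values were seen. Positions and exon lengths came from GENCODE vM1 (mm9). Promoter windows came from RefSeq (GRCm38.p6), all 10 members matched by symbol, and were placed on mm9 by exact sequence match.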

Additional observations from a re-analysis of the deposited data

How the results depend on the processing

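Over 18 fits, the reported one included, the log2 fold change ran from 0.50 to 0.66 for Atf4, from 1.10 to 2.02 for Psat1 and from 1.71 to 2.68 for Slc7a11. The members were chosen on these libraries, so their direction in these fits is no sign of stability. Of the other pathway genes, 17 passed as higher by edgeR and 16 by limma-voom, against 32 by DESeq2. With each library left out in turn the count ran from 19 to 26. With both adrenal-containing libraries left out it was 9, and 9 were at least 2-fold higher, but that fit had 2 libraries a group. Over all genes, 493 were higher and 428 lower by edgeR, 485 and 456 by limma-voom, and 421 and 260 without both adrenal-containing libraries. Leaving out 1 library gave 664 to 1531 higher and 575 to 1674 lower. Without Control replicate 1 the counts were 664 and 575, without Control replicate 2 they were 705 and 627, and without TfR1 knockout replicate 3 the lower count was 659. Scaling by total counts turned the split of 1277 higher and 1186 lower into 996 and 1407. The sign of Tfrc turned without Control replicate 3 (-0.095 on the log2 scale), without TfR1 knockout replicate 1 (-0.072) and with the Xist term (-0.098), and that of Aldh1l1 without TfR1 knockout replicate 2 (-0.013). With single libraries left out, Tfrc ran from -0.095 to 0.303 and Aldh1l1 from -0.013 to 0.718. Except where stated, the cause was not tested.

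The same replicate numbers occur in both groups, but same-numbered libraries did not deviate together (r = -0.0378, 0.0548 and 0.0899). The numbers thus gave no sign of pairing. Such values cannot exclude it, since a shared litter may leave little trace, and the study describes its controls as littermates. With the replicate block 1085 genes were higher and 1087 lower, with 26 of the other pathway genes among the higher. With 3 libraries a group the spread between kidneys, and for Slc7a11 and Chac1 also low counts, limit the precision.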
